A study of Mus musculus with 3 samples.

Results

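The 6 members of the gap junction connexin set of glia, Gja1, Gjb6, Gjb1, Gjc1, Gjc3 and Gja4, were followed through brain cells of a mouse stroke study. They were chosen by symbol, with earlier results of these data known, and are 6 of the 31053 genes of the deposited table. The study sequenced 1 single-cell library per condition from brain tissue of healthy control mice, mice with ischemic stroke from occlusion of the middle cerebral artery, and mice with hemorrhagic stroke from collagenase in the striatum. All were labelled strain C56BL6, which the study's methods write as C57BL/6, at 10 weeks of age, tissue from 8 mice entered each library per the study's methods, and the time after stroke is not given for these libraries in the sources used here. The 3 libraries share 1 matrix, in which only a barcode suffix of 1, 2 or 3 tells them apart. The sample labels do not tie a suffix to a condition, and no condition was inferred from the numbers or values of the cells, which leaves 1 pooled sample in which conditions were not compared and no p-value was computed.

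Gap junctions are channels that join the cytoplasm of touching cells and let ions and small molecules pass. Each cell contributes a hemichannel made of connexin subunits, and the subunits present decide which partners a cell can couple with. Astrocytes form a large coupled network in this way, oligodendrocytes couple with astrocytes and across layers of their own myelin, and endothelial and mural cells conduct signals along the vessel wall. In the names of the proteins, Gja1 encodes Cx43 and Gjb6 encodes Cx30, the connexins best known from astrocytes. Gjb1 encodes Cx32 and Gjc3 encodes Cx29, which are known from myelinating cells. Gjc1 encodes Cx45 and Gja4 encodes Cx37, which are known from the vessel wall.

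The promoters of the members that shared a class are shown because the members fell into pairs by class, as the values below give. RefSeq (GRCm38.p6, the assembly of the mm10 build named in the submitters' processing notes) lists a promoter for 5 of the 6 members, and none is given here for Gjc1. Each sequence is the 250 bases before the transcription start, read 5′ to 3′ on the gene's strand. For Gjb1, which has 4 listed promoters, the one nearest to the end of the gene is shown. Capitals mark the letters of 5 short motifs that were searched on both strands. The core bound by SOX factors, which include regulators of the oligodendrocyte lineage, was searched as ACAAAG. The TATA box, which places the start of transcription, was searched as TATAAA. The GC box, bound by factors of the Sp family, was searched as GGGCGG. The site of the AP-1 complex was searched as TGAGTCA, and the half-site of NFI factors, which act in astrocyte development, as TTGGCA. No match overlapped another in these windows.
Gja1, chr10:56377050-56377299, + strand: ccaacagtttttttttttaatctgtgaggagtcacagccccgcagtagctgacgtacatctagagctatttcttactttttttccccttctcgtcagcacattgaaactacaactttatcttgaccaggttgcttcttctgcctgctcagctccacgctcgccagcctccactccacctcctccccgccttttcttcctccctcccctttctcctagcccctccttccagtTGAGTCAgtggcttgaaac
Gjb6, chr14:57133612-57133861, - strand: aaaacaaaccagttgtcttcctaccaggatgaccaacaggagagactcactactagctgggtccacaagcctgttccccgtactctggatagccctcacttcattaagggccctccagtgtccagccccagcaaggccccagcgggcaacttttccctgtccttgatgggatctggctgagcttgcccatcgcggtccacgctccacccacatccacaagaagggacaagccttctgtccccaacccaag
Gjb1, chrX:101383482-101383731, + strand: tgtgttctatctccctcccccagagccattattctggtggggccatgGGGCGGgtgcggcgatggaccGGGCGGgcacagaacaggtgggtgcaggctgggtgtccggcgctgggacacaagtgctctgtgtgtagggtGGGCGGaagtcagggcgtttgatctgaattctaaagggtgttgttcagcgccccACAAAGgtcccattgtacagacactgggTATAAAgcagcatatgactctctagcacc
Gjc3, chr5:137963099-137963348, - strand: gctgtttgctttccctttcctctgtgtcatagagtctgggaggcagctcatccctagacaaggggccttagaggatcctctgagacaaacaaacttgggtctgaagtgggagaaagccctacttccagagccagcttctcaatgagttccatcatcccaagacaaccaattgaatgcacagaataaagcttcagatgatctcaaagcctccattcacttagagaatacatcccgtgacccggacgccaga
Gja4, chr4:127314040-127314289, - strand: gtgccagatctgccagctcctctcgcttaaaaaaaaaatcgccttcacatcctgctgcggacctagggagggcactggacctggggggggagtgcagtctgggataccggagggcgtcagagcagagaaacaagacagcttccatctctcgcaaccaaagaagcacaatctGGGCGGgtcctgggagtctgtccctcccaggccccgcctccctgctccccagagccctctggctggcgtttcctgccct
The Gja1 window held TGAGTCA from -19 to -13 before the start, a motif found in 4.46% of 32851 promoters. The Gjb1 window shown held ACAAAG from -57 to -52, which is in 16.5% of promoters, and TATAAA from -29 to -24, which is in 12.4%. It also held 3 copies of GGGCGG, which is in 32.7%. Of the Gjb1 windows not shown, the one at chrX:101376126-101376375 held ACAAAG from -176 to -171. Those at chrX:101376985-101377234 and chrX:101381868-101382117 held none of the 5 motifs. The Gja4 window held 1 GGGCGG. None of the 5 motifs occurred in the windows of Gjb6 and Gjc3, and TTGGCA, in 12.3% of promoters, occurred in none of the 5 windows shown. The motifs were picked with the values known and describe letters only.

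In GENCODE M21 (GRCm38), Gja1 lies at chr10:56377330-56402513, Gjb6 at chr14:57123303-57133611, Gjb1 at chrX:101376378-101385629, Gjc1 at chr11:102799579-102819700, Gjc3 at chr5:137953461-137963098 and Gja4 at chr4:127311421-127314039. No annotated gene overlaps any of them. Every annotated coding transcript of Gja1, Gjb6, Gjb1, Gjc1 and Gja4 carries its whole coding sequence in 1 exon, while the 1 coding transcript of Gjc3 splits it over more. Of the identifiers in the matrix, 99.6% were in this annotation.

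The matrix held 35968 barcodes, of which 34267 had at least 500 UMIs (molecules counted by their unique identifier) and at most 30% mitochondrial counts, with medians of 5493 to 6049.5 UMIs per cell across the libraries. Cells were assigned to a class where they passed the raw-UMI marker gate of that class and of no other. Exceptions were pairs of gates resolved by a set rule. They were precursors with committed precursors, committed precursors with mature oligodendrocytes, and pericytes with smooth muscle cells. Together this placed 26676 cells in 18 classes, while 3674 others passed several gates and 3917 passed none. In all 18 classes the 10 leading genes included markers of the class itself, and in none were they outnumbered by those of another. Cells were picked by these markers, so this follows from the gates and is no separate check of the classes. The 3 leading genes were Slc1a2, Aldoc and Clu in astrocytes, Cspg5, Pdgfra and Lhfpl3 in oligodendrocyte precursors (OPC), 9630013A20Rik, Gpr17 and Tnr in committed precursors and newly formed oligodendrocytes (COP/NFOL), and Ptgds, Mal and Ermn in mature oligodendrocytes. They were Mgp, Ly6c1 and Tm4sf1 in arterial endothelial cells, Cldn5, Itm2a and Ly6c1 in other endothelial cells, Vtn, Rgs5 and Higd1b in pericytes, and Acta2, Tagln and Tpm2 in smooth muscle cells. The endothelial classes and pericytes came almost wholly from the library of suffix 3, so their values describe that library. It held 109 of 113 arterial endothelial cells, 682 of 697 other endothelial cells and 96 of 102 pericytes. Smooth muscle cells came mostly from it, with 55 of 79, while 21 came from suffix 2, so their pooled values mix libraries. Between libraries, 110 barcode sequences were shared. Of 61 shared among classified cells, 18 fell in the same class.

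Levels are given as CPM, the UMIs of a gene per 1000000 summed UMIs of a class, with exact Poisson 95% intervals, and shares of cells with exact Clopper-Pearson 95% intervals. Both cover counting error only. Where no UMI was found, the level said to be allowed is that of 3 UMIs in the class, which is below the upper end of the exact interval. UMIs were counted from 3′ ends and are not scaled by transcript length, so a gene was compared with itself across classes. T cells, none of whose gate markers is shared with a class described here, served as a measure of free RNA at a median of 4720.5 UMIs per cell. In them the CPM was 0.919 for Gja1, 0.230 for Gjb6, 3.14 for Gjb1, 5.36 for Gjc3 and 0.0766 for Gja4. No Gjc1 UMI was found, which allows a level of up to 0.230 CPM. Of the 2444 T cells, 889, 1536 and 19 came from suffix 1, 2 and 3, so these pooled levels say little about free RNA in suffix 3. For that library, levels in microglia are given below.

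**Figure D1:**
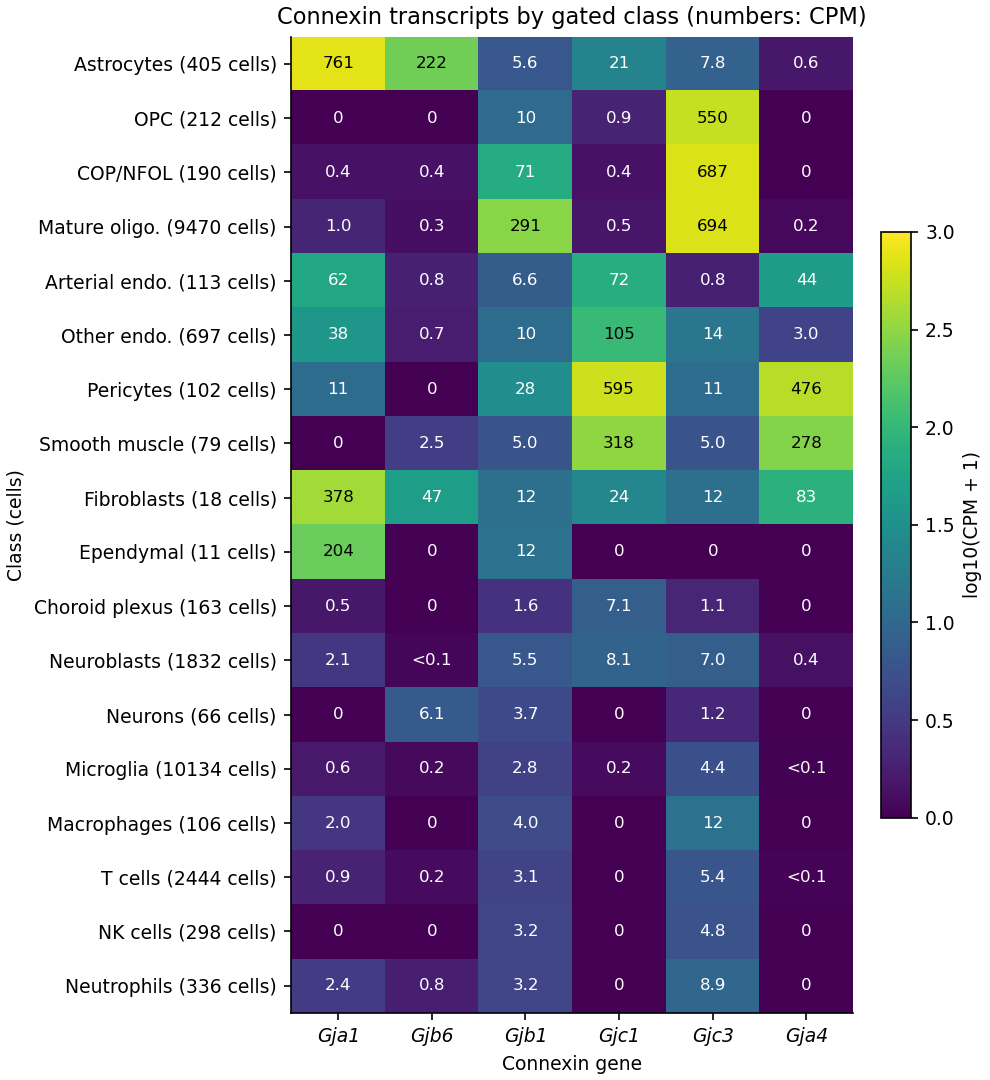
Heatmap of the 6 connexin genes (columns) in 18 gated classes (rows, with cell numbers). The colour is log10(CPM + 1) of summed UMIs from all 3 libraries and the printed numbers are CPM. Gja1 and Gjb6 are highest in astrocytes, Gjb1 and Gjc3 in mature oligodendrocytes, and Gjc1 and Gja4 in pericytes. Gjc3 is also high in OPC and COP/NFOL, where Gjb1 is at 10.1 and 70.5 CPM, and Gjc1 is at 105 CPM in other endothelial cells. Fibroblasts (18 cells) and ependymal cells (11 cells) rest on few cells.

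Astrocytes had the highest level of both Gja1 and Gjb6. The levels here are those of the whole gate, which includes 45 cells with a UMI of Mki67 or Top2a, genes of dividing cells. These had 1004 CPM of astrocyte markers against 13822 CPM in the other 360, as described below. Without them Gja1 was at 1159 CPM and Gjb6 at 353 CPM, so the pooled levels mix unlike cells. Gja1 reached 761 CPM (interval 721 to 803) in 405 cells, and 70.1% of the cells had a UMI (65.4 to 74.5%) at a median of 2576 UMIs per cell, against 0.491% of T cells. In the libraries of suffix 1, 2 and 3, the Gja1 level in astrocytes was 960, 734 and 709 CPM. The intervals of suffix 2 and 3 overlapped, and that of suffix 1, 856 to 1073 CPM, lay above both. Gjb6 was at 222.5 CPM (201 to 246), with a UMI in 44.7% of astrocytes (39.8 to 49.7%) against 0.123% of T cells. Its levels were 218, 156 and 258.5 CPM in the same libraries, where the intervals of suffix 1 (170 to 276) and suffix 3 (227 to 293) overlapped.

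The next levels of Gja1 were in fibroblasts, at 378 CPM (259 to 534) in 18 cells, and ependymal cells, at 204 CPM (119 to 327) in 11 cells, 2 of which were called doublets. The intervals of these neighbours in the order overlapped. The fibroblasts also carried 8151 CPM of the 6 pericyte markers, 4 of them at 0. They held 520 CPM of the astrocyte and 709 CPM of the neuron markers, and the part of this in their levels was not tested. Gja1 then stood at 61.7 CPM (48.6 to 77.4) in arterial and 37.5 CPM (31.9 to 43.7) in other endothelial cells. No Gja1 UMI was found in 212 OPC, which allows up to 2.75 CPM, nor in 79 smooth muscle cells, which allows up to 7.46 CPM. In mature oligodendrocytes Gja1 was at 1.04 CPM, near the T cell level, so the ratio of astrocytes to these cells, 734 (569 to 963), is likewise set by a level near that of free RNA. Gjb6 dropped faster down the order: fibroblasts followed at 47.3 CPM from 4 UMIs, and every other class was below 10 CPM. In mature oligodendrocytes Gjb6 was at 0.301 CPM (0.179 to 0.476), not above the T cell level, so its ratio of astrocytes to these cells, 739 (461.5 to 1260), has free RNA in the denominator and is no measure of expression there. Set against all other gated cells on a scale of CPM + 10, 2 of the 6 members passed 4-fold in astrocytes, Gja1 at 62.5-fold and Gjb6 at 22.6-fold, where 2.29% of 16957 genes did.

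Cells within the astrocyte gate differed in both genes. Agt, which encodes angiotensinogen and marks a part of the brain's astrocytes, was seen in 166 cells, and Gja1 was at 1617 CPM (1506 to 1734) in these and 439 CPM (404 to 477) in the 239 without an Agt UMI. The ratio was 3.68 (3.30 to 4.11), and it was 18.8, 4.02 and 2.38 in the libraries of suffix 1, 2 and 3. Gjb6 followed at 498 CPM against 119 CPM, a ratio of 4.19 (3.41 to 5.16), with 19.7, 5.98 and 3.51 in the same libraries. Beside this difference, the summed level of the 8 astrocyte markers of the gate was 15002 CPM with Agt and 6865 CPM without it. Mki67, a marker of dividing cells, was at 20.5 CPM with Agt and 235 CPM without it, and Top2a, a topoisomerase of dividing cells, at 47.1 and 258 CPM.

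The 45 cells of the gate with a UMI of Mki67 or Top2a were then set apart, a choice made after these values were seen. These cells had a median of 14505 UMIs and 1004 CPM of astrocyte markers. Gja1 in them was at 82.0 CPM (61.6 to 107), and no Gjb6 UMI was found, which allows up to 4.56 CPM. In the other 360 cells, with a median of 2309 UMIs and 13822 CPM of astrocyte markers, Gja1 was at 1159 CPM (1097 to 1223) and Gjb6 at 353 CPM (319 to 389). The ratio was 14.1 (10.8 to 18.9) for Gja1. The cells with Mki67 or Top2a were thus also the deeper ones, and had less of the astrocyte markers. Gja1 UMIs amounted to 8.17% of the summed astrocyte marker UMIs in them and to 8.38% in the other 360 cells. Relative to these markers Gja1 was thus about level, while Gjb6 amounted to 0 and 2.55%. The parts of depth and of the marker level in the differences were not tested. Summed UMIs weigh deeper cells more, so these 45 cells count for more than their number in the 761 CPM of Gja1 of the whole gate.

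Among those 360 cells the Agt difference was smaller. Gja1 was at 1694 CPM with Agt and 787 CPM without, a ratio of 2.15 (1.93 to 2.41), and at 6.51, 2.96 and 1.43 by library, with each interval above 1. Gjb6 was at 527 and 232 CPM, a ratio of 2.27 (1.85 to 2.80), and at 4.46, 4.0 and 1.99 by library, again with each interval above 1. The library of suffix 1 had 15 such cells without Agt. The astrocyte marker sum still differed, at 15800 CPM with Agt and 12450 CPM without it, and its part in the ratios was not tested. Gja1 in the 360 cells was at 1753, 1074 and 1041 CPM in the libraries of suffix 1, 2 and 3, and Gjb6 at 409, 244 and 392 CPM.

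**Figure D2:**
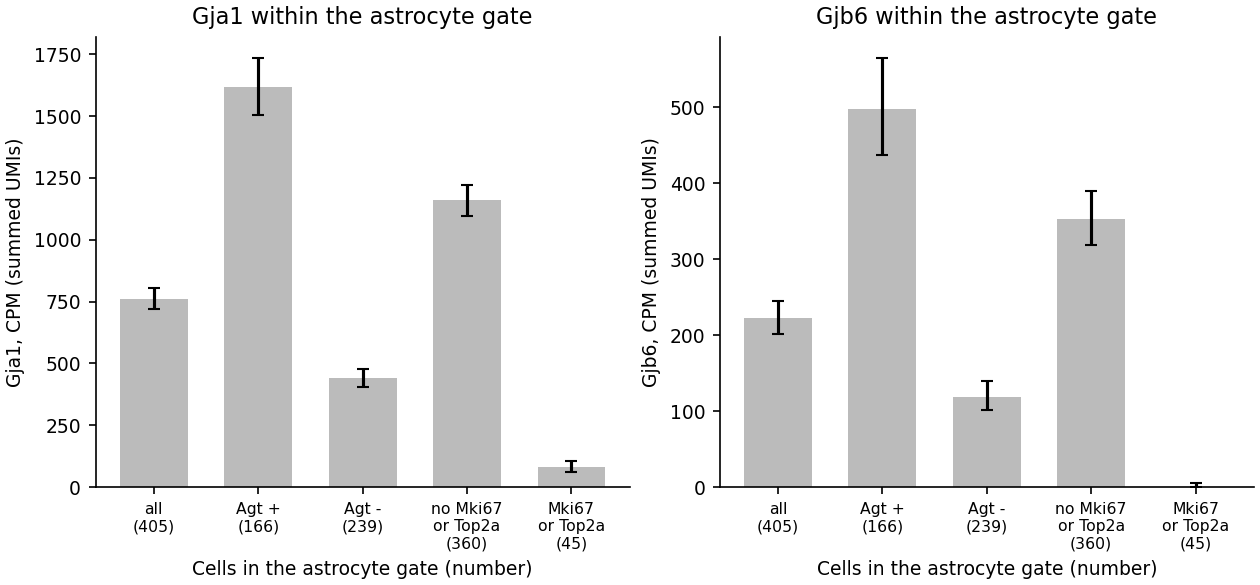
Bars give the level of Gja1 (left) and Gjb6 (right) in CPM of summed UMIs in cells of the astrocyte gate, with cell numbers under each bar and exact Poisson 95% intervals. Gja1 was at 1617 CPM in cells with Agt and 439 CPM in cells without it, and at 1159 CPM in cells lacking Mki67 and Top2a against 82.0 CPM in cells with either; Gjb6 shows the same order.

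Gjc3 was high in all classes of the oligodendrocyte lineage, from the precursors on. It was at 550 CPM (507 to 596) in 212 OPC, 687 CPM (654 to 721) in 190 COP/NFOL and 694 CPM (687 to 701) in 9470 mature oligodendrocytes. A Gjc3 UMI was found in 79.7%, 90.0% and 89.8% of these cells, at medians of 4729.5, 10873 and 5972 UMIs, against 2.37% of T cells. The levels of the last pair overlapped, with a ratio of 1.01 (0.962 to 1.06), while COP/NFOL stood above OPC by 1.25 (1.14 to 1.37).

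That small step was seen in the libraries of suffix 1 and 2 and not in that of suffix 3. Gjc3 in OPC was at 431, 665 and 936 CPM in the libraries of suffix 1, 2 and 3, from 108, 74 and 30 cells. In COP/NFOL it was at 671, 974 and 487.5 CPM, and in mature oligodendrocytes at 729, 831 and 556 CPM. OPC were thus the lowest of the 3 classes in the libraries of suffix 1 and 2, and the highest in that of suffix 3, which held 30 OPC. Outside the lineage no class exceeded 14.1 CPM over the pooled libraries, the level in other endothelial cells. By library, the highest level outside the lineage was 56.9 CPM (11.7 to 166), from 3 UMIs in 13 other endothelial cells of suffix 2.

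Gjb1 rose along the same classes. It was at 10.1 CPM (5.03 to 18.0) in OPC, from 11 UMIs, at 70.5 CPM (60.4 to 81.9) in COP/NFOL and at 291 CPM (287 to 295) in mature oligodendrocytes. The step from OPC to COP/NFOL was 7.0 times (3.82 to 14.3), and that from COP/NFOL to mature oligodendrocytes 4.13 times (3.55 to 4.82). Cells that passed the COP/NFOL and the mature gate were counted as COP/NFOL. The summed mature oligodendrocyte markers were at 352.8 CPM in OPC, 16739 CPM in COP/NFOL and 20537 CPM in mature oligodendrocytes. Their part in the steps was not tested. The shares of cells with a Gjb1 UMI were 5.19%, 32.1% and 66.8%, against 1.47% of T cells. Each library gave the same order. The levels in suffix 1 were 6.27, 61.7 and 315 CPM. In suffix 2 they were 19.1, 54.7 and 293 CPM. In suffix 3 they were 0, 98.4 and 275 CPM, where the 30 OPC without a UMI allow up to 34.7 CPM. Microglia of the same libraries, as a measure of free RNA, held 1.67, 1.66 and 11.7 CPM. T cells of the same libraries held 2.83, 3.27 and 11.6 CPM, the last from 1 UMI. The OPC interval of suffix 2, 7.67 to 39.3 CPM, lay above both, while that of suffix 1, 1.71 to 16.1 CPM, held the T cell level, so that Gjb1 in OPC could be told from free RNA in 1 of the 3 libraries.

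**Figure D3:**
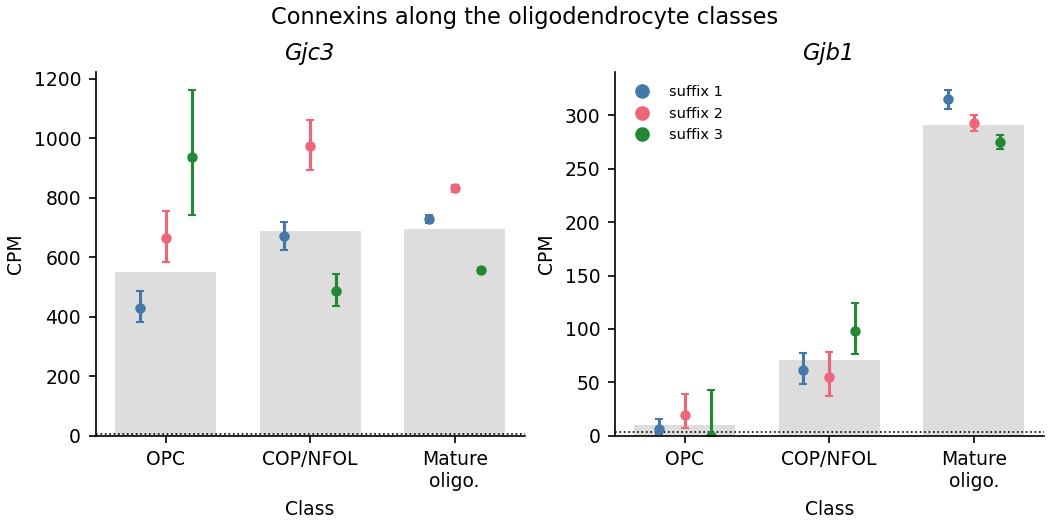
Levels of Gjc3 and Gjb1 in CPM (y axis, from 0, own scale per panel) in OPC, COP/NFOL and mature oligodendrocytes. Grey bars pool the 3 libraries, and points give each library (barcode suffix) with its exact Poisson 95% interval. The dotted line is the T cell level over the pooled libraries, where T cells came mostly from suffix 1 and 2. Gjb1 rises over the 3 classes in every library, to between 275 and 315 CPM, whereas the order of the Gjc3 points changes from library to library.

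Set against all other gated cells, 2 of the 6 members passed 4-fold in mature oligodendrocytes, Gjc3 at 21.9-fold and Gjb1 at 20.4-fold, where 3.27% of genes did. No member passed it in OPC, where 3.0% of genes did, nor in COP/NFOL, where 1.21% did. The other gated cells include 9470 mature oligodendrocytes there, which carry Gjc3 themselves.

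Within mature oligodendrocytes the members moved in opposite directions between the cells marked by Klk6, a kallikrein protease, and those marked by Il33, a nuclear cytokine. Gjb1 was at 504.5 CPM in the 848 cells with a Klk6 and no Il33 UMI and at 243.5 CPM in the 5836 cells with Il33 and no Klk6. The ratio was 2.07 (1.99 to 2.15), and in the libraries of suffix 1, 2 and 3 it was 2.11, 1.99 and 2.10. Gjc3 was at 495 CPM in the Klk6 cells and 766 CPM in the Il33 cells, a ratio of 0.646 (0.624 to 0.669). By library it was 0.596, 0.665 and 0.702. Both directions held in each of the 3 libraries, with intervals that left out 1. The summed level of the 8 oligodendrocyte markers was 17572 CPM in the Klk6 cells and 21244 CPM in the Il33 cells, at medians of 8700 and 6047.5 UMIs, and its part in the differences was not tested.

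Gjc1 and Gja4 were both highest in pericytes and next highest in smooth muscle cells. Gjc1 was at 595 CPM (509 to 692) in 102 pericytes and 318 CPM (266 to 378) in 79 smooth muscle cells, with a UMI in 72.5% and 62.0% of the cells at medians of 2962 and 5668 UMIs. Gja4 was at 476 CPM (399 to 563) and 278.5 CPM (229 to 335), with a UMI in 56.9% and 57.0%. The ratio of pericytes to smooth muscle cells was 1.87 (1.48 to 2.37) for Gjc1 and 1.71 (1.32 to 2.21) for Gja4. These ratios pool the libraries, and 21 of the 79 smooth muscle cells came from suffix 2. Smooth muscle cells carried 1756 CPM of the 6 pericyte markers, 1 of them at 0, against 29869 CPM in pericytes, and the part of this in their connexin levels was not tested.

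Most of these cells shared a library. In suffix 3 alone Gjc1 was at 588 CPM in 96 pericytes and 370 CPM in 55 smooth muscle cells, and Gja4 at 465 CPM and 334 CPM. The 21 smooth muscle cells of suffix 2 had 201 CPM of Gjc1 (126 to 305) and 146 CPM of Gja4 (83.7 to 238), which lay below the intervals of suffix 3 for Gja4 and overlapped them for Gjc1. The 6 pericytes of suffix 1 and 2 held 7 UMIs of each gene. In suffix 3, free RNA read from microglia gave 0.998 CPM of Gjc1 and 0.299 CPM of Gja4.

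Endothelial cells held Gjc1 at a lower level and split on Gja4. Gjc1 was at 105 CPM (95.2 to 115) in 697 other endothelial cells and 72.4 CPM (58.1 to 89.2) in 113 arterial ones, a ratio of arterial to other of 0.692 (0.545 to 0.872). Gja4 was at 44.4 CPM (33.4 to 58.0) in arterial and 3.01 CPM (1.60 to 5.15) in other endothelial cells, a ratio of 14.8 (7.95 to 29.5). It had a UMI in 25.7% of arterial cells at a median of 6944 UMIs and in 1.87% of other endothelial cells at 4864. With each cell thinned to 1000 UMIs, these shares were 2.68% (0.556 to 7.63%) and 0.760% (0.247 to 1.76%), from 3 and 5 cells, and their intervals overlapped. Gja1 was higher in arterial cells too, at 61.7 against 37.5 CPM, a ratio of 1.65 (1.24 to 2.18).

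Mural markers were low in both endothelial classes. The summed pericyte markers were at 37.9 CPM in arterial and 56.0 CPM in other endothelial cells, and the smooth muscle markers at 23.9 and 18.3 CPM. Within suffix 3 the Gja4 levels were 41.9 CPM in arterial and 3.05 CPM in other endothelial cells. The 4 arterial cells of the other libraries included 1 cell with 4 Gja4 UMIs. Pericytes stood above other endothelial cells by 158 times for Gja4 (89.4 to 305) and 5.69 times for Gjc1 (4.74 to 6.81). Gja1 went the other way, with 3 UMIs in pericytes, 10.6 CPM, at a ratio to other endothelial cells of 0.282 (0.0575 to 0.839). These ratios leave out cells that passed both the endothelial and the pericyte gate. Among those, 146 passed no other gate and held Gja4 at 77.7 CPM, so the size of the ratios depends on leaving such cells out.

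Oligodendrocyte connexins were low in the vascular classes. Gjb1 was at 10.4 CPM and Gjc3 at 14.1 CPM in other endothelial cells, where the summed oligodendrocyte markers were at 1279 CPM with 0 of 8 markers at 0. Microglia of suffix 3 held 11.7 and 11.3 CPM of the same genes. In arterial endothelial cells of suffix 3 Gjc3 was lower, at 0.839 CPM (0.0212 to 4.67) from 1 UMI. In pericytes of suffix 3 Gjb1 was at 29.1 CPM (12.6 to 57.3) from 8 UMIs, above the microglia level. The oligodendrocyte markers in pericytes were at 1378 CPM, and their part in it was not tested.

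**Figure D4:**
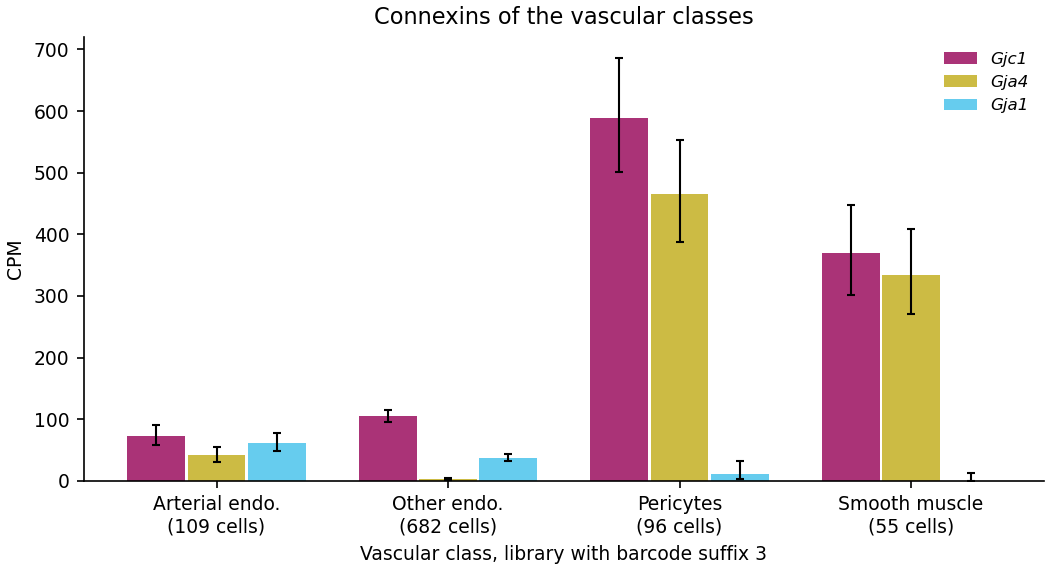
Levels in CPM of Gjc1, Gja4 and Gja1 in 4 vascular classes of the library with barcode suffix 3, with exact Poisson 95% intervals and cell numbers. Gjc1 and Gja4 are highest in pericytes, at 588 and 465 CPM, and Gja4 separates arterial endothelial cells at 41.9 CPM from other endothelial cells at 3.05 CPM.

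Against all other gated cells, 2 of the 6 members passed 4-fold in pericytes, Gja4 at 43.8-fold and Gjc1 at 41.8-fold, where 2.82% of genes did. In smooth muscle cells the same pair passed it, at 25.8-fold and 22.3-fold, where 3.05% of genes did. In arterial endothelial cells Gjc1 at 5.52-fold and Gja4 at 4.73-fold passed it, where 3.14% of genes did. In other endothelial cells 1 of the 6 did, Gjc1 at 8.77-fold, where 3.07% of genes did.

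Gjc1 was low in the glial classes. It had 1 UMI in 212 OPC, 0.916 CPM (0.0232 to 5.11), and 1 UMI in 190 COP/NFOL. In astrocytes it was at 20.7 CPM (14.6 to 28.6), with a UMI in 6.17% of cells, above the level that T cells allow. By library this was 9.35, 24.0 and 22.8 CPM, from 3, 12 and 22 UMIs, where the summed pericyte markers were at 53.8 CPM and the endothelial markers at 61.7 CPM, and their part in it was not tested. Gja4 was at or near 0 in every glial class, with 1 UMI in astrocytes and none in OPC or COP/NFOL.

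Gjb2, which encodes another connexin known from astrocytes and the meninges, was at 11.2 CPM (6.85 to 17.3) in astrocytes and at 70.9 CPM, from 6 UMIs, in the 18 fibroblasts. Gja5, known from arteries, had 9 UMIs in arterial endothelial cells, 7.41 CPM (3.39 to 14.1), and none in other endothelial cells. Both were named after their values were seen. Of the 3 pannexins, which form channels in a single membrane, 2 could be set against other cells. Neither passed 4-fold in any of the 8 classes, where 1.21 to 3.27% of 16957 genes did. None of 2 is near that share and is no result about pannexins. Tjp1, which encodes a scaffold protein that binds connexins, passed 4-fold in both endothelial classes, at 259 CPM in arterial and 267 CPM in other endothelial cells. There 3.14% and 3.07% of genes did. Nov, which encodes a secreted matricellular protein, passed 4-fold in arterial endothelial cells at 37.9 CPM, against 2.78 CPM in other endothelial cells, and was named after its values were seen.

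Pairs of connexins were often seen in the same cell. Joint shares depend on how often each gene of a pair is seen by itself, and a link between the genes within cells was not tested. Both Gja1 and Gjb6 had a UMI in 159 of 405 astrocytes, 39.3% (34.5 to 44.2%), while 125 had Gja1 alone, 22 had Gjb6 alone and 99 had neither. In mature oligodendrocytes Gjb1 and Gjc3 were together in 62.9% of cells (61.9 to 63.9%), with Gjc3 alone in 26.9% and Gjb1 alone in 3.93%. Gja4 and Gjc1 were together in 45.1% of pericytes (35.2 to 55.3%) and 39.2% of smooth muscle cells (28.4 to 50.9%). These shares depend on depth. With each cell thinned to 1000 UMIs, which left out 61 astrocytes, 244 mature oligodendrocytes, 12 pericytes and 10 smooth muscle cells, they were 18.0%, 10.8%, 18.9% and 8.70%. A cell without a UMI of a connexin therefore cannot be read as one that lacks it.

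**Figure D5:**
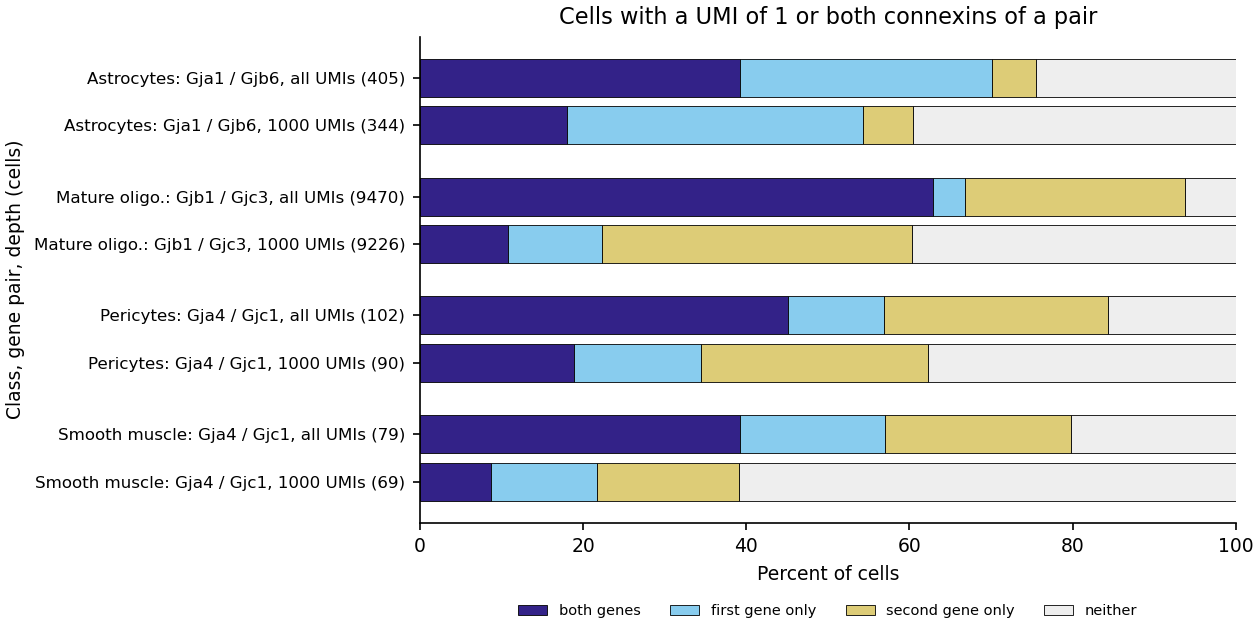
Stacked bars give the percent of cells with a UMI of both, 1 or neither connexin of a pair, at full depth and after thinning each cell to 1000 UMIs (cell numbers in brackets). Cells with both genes fall from 62.9% to 10.8% of mature oligodendrocytes and from 39.3% to 18.0% of astrocytes when depth is made equal.

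Levels within the pairs went together across classes. The pairs were named by the class of their highest level, so a high r within them follows in part from that choice. Over the 16 classes of at least 50 cells, the Pearson r of log2(CPM + 10) was 0.907 between Gja4 and Gjc1, 0.846 between Gja1 and Gjb6, and 0.786 between Gjb1 and Gjc3. The classes share libraries and free RNA, and each r rests on a few high classes. Among 4754 genes of at least 100 CPM in a class that were neither connexins nor gate markers, the most similar to Gja1 were Fam107a (0.919), Cyp2d22 (0.917) and Prex2 (0.885). Those most similar to Gjb6 were Etnppl (0.996), Agt (0.983) and Crym (0.982). For Gjb1 they were Smco3 (0.989), C030029H02Rik (0.983) and Cntn2 (0.981), and for Gjc3 they were Sox10 (0.983), Erbb3 (0.980) and Gal3st1 (0.976). For Gjc1 they were Rgs5 (0.974), Tnks1bp1 (0.966) and Tns2 (0.954), and for Gja4 they were Gper1 (0.992), Lamc3 (0.972) and Gm13861 (0.962).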

How the data were processed

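Per the submitters' processing notes and the study's methods, the authors mapped reads with STAR in Cell Ranger 3.1.0 to mm10, down-sampled reads across libraries, and used Seurat 3.1.1. They deposited 1 matrix of UMI counts, which are whole numbers and not scaled within a cell. It still holds barcodes that their filter removes. Down-sampling lowers the depth of the deeper libraries and with it shares of cells with a UMI.

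Cells with at least 500 UMIs and at most 30% mt- counts were kept. Gates counted marker genes with a UMI (3 of 8 for astrocytes, 5 of 8 for mature oligodendrocytes), and held no connexin. Endothelial cells with 2 of 5 arterial genes were called arterial. Counts were summed per class with Python 3.11.15, and intervals taken from SciPy 1.17.1. Doublets were called by Scrublet in scanpy 1.11.5 at an expected rate of 10%, found in 4.32, 4.84 and 6.65% of the cells of suffix 1, 2 and 3, and left out only as an alternative. The calls found 45.1, 46.2 and 42.6% of simulated doublets, so that many can go uncalled. Genes of at least 20 UMIs were compared by fold. Ratio intervals condition on the total UMIs. Gates and intervals were run on simulated cells drawn from the summed profiles of gated classes. These draws vary only by depth and counting, so the outcome follows in part from the setup and is no check of the gates.

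The members, gates, lists and subtype genes were chosen with earlier results of these data known. Named were the members in every class, list genes above 50 CPM in a class of at least 50 cells, the 3 most similar genes of each member and the 3 leading genes of each class (a UMI in at least 25% of cells). Alternatives were other marker numbers, the filter of the study (UMI and gene numbers within 2 SD of the mean), at most 10% mt- counts, cell means, thinning and each library left out. Some results on other genes are not reported here.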

Additional observations from a re-analysis of the deposited data

How the results depend on the processing

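The sample labels do not tie libraries to conditions, so no test was made, and no paired analysis was possible because there is 1 pooled sample. The endothelial classes and pericytes rest almost wholly on the library of suffix 3, and smooth muscle cells rest on it for 55 of 79 cells. Cells placed in 1 class held 41.3% of the Gjc1 and 38.5% of the Gja4 UMIs of all filtered cells. In the microglia of suffix 3, transcripts taken as free RNA reached 11.7 CPM of Gjb1 and 11.3 CPM of Gjc3. Lower levels of these genes in that library were not told apart from free RNA. Gjc3 in arterial endothelial cells of the same library lay below the microglia level, so that level does not hold for every class. Other sources of these transcripts in microglia were not tested.

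The 25 values were recomputed under other settings. Leaving out called doublets moved 0 of 14 values past their interval. Few cells were removed by it, with 4 called among astrocytes, 6 among OPC and 1 among smooth muscle cells. Arterial endothelial cells and pericytes had 0 called, so their values could not move. The cause of the moves below was not tested. With 1 marker fewer in every gate but that of COP/NFOL, which stayed at 2, Gjb1 and Gjc3 in mature oligodendrocytes were at 286.4 and 712.5 CPM. Gjc1 in OPC was then at 0, and Gjb1 with Gjc3 were together in 60.57% of mature oligodendrocytes. With 1 marker more, Gja1 and Gjb6 in astrocytes were at 1048 and 307.8 CPM, Gjc3 in mature oligodendrocytes was at 683.8 CPM, and the pairs were together in 46.31% of astrocytes and 65.46% of mature oligodendrocytes. Under the study's filter (32176 cells), Gja1, Gjb6 and Gjc3 in the same classes were at 990.2, 284.4 and 705.9 CPM. With at most 10% mt- counts (29768 cells), Gja1 and Gjb6 in astrocytes were at 590.9 and 177.3 CPM, Gjb1 in mature oligodendrocytes was at 304.1 CPM and its pair with Gjc3 was in 71.38% of cells. As a mean over cells, Gja1 and Gjb6 in astrocytes were at 1095 and 316.2 CPM, Gjb1 and Gjc3 in mature oligodendrocytes at 263.8 and 717.9 CPM, Gjc3 in OPC at 665.5 CPM and Gja4 in arterial endothelial cells at 58.93 CPM. Without astrocyte-gate cells that had a Mki67 or Top2a UMI, a choice made after seeing the data, Gja1 and Gjb6 were at 1159 and 352.7 CPM.

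With each library left out in turn, Gja1 in astrocytes ranged from 717.7 to 822.5 CPM and Gjb6 from 180.3 to 248.4 CPM. In mature oligodendrocytes Gjb1 ranged from 283.1 to 302.1 CPM, Gjc3 from 622.1 to 787.8 CPM and their shared share from 61.28 to 65.45%. In OPC Gjc3 ranged from 491.3 to 716.9 CPM and Gjc1 from 0 to 2.206 CPM. Gjc1 ranged from 586.2 to 820.2 CPM in pericytes and from 194.9 to 362.0 CPM in smooth muscle cells. Gja4 ranged from 41.42 to 177.1 CPM in arterial endothelial cells, from 0 to 3.046 CPM in other endothelial cells and from 144.0 to 327.9 CPM in smooth muscle cells. The pair of Gja4 and Gjc1 was in 26.67 to 44.87% of mural cells, the lowest without suffix 3. The extremes without suffix 3 rest on 4 arterial endothelial cells (177.1 CPM of Gja4) and 6 pericytes (820.2 CPM of Gjc1), and Gja4 in smooth muscle cells without it was at 144.0 CPM.

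Thinned to 1000 UMIs per cell, which by construction lowers shares, the cells with a UMI were 54.36% for Gja1 and 24.13% for Gjb6 in astrocytes, 22.32% for Gjb1 and 48.83% for Gjc3 in mature oligodendrocytes, and 40.58% for Gjc3 and 0 for Gjc1 in OPC. They were 46.67% for Gjc1 in pericytes, 26.09% for Gjc1 and 21.74% for Gja4 in smooth muscle cells, and 2.679% and 0.7599% for Gja4 in arterial and other endothelial cells. The pairs were together in 18.02% of astrocytes, 10.81% of mature oligodendrocytes and 14.47% of mural cells.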

Other observations

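Cells that passed a pair of gates, other than the pairs resolved by a set rule, were left out of the classes, and their connexins were read separately. The 150 cells that passed the astrocyte and the OPC gate carried the connexin of the oligodendrocyte lineage. Gjc3 was at 642 CPM (593 to 694) in them, with a UMI in 95.3% of cells, while Gja1 was at 6.10 CPM from 6 UMIs and no Gjb6 UMI was found, which allows up to 3.05 CPM. Of these cells 1.33% were called doublets. Summed over the group, the 118 cells that passed the astrocyte and the mature oligodendrocyte gate held connexins of both, with Gja1 at 230 CPM, Gjb6 at 70.9 CPM, Gjb1 at 251 CPM and Gjc3 at 350 CPM, and 16.1% of them were called doublets. A Gja1 UMI was found in 41.5% and a Gjb1 UMI in 65.3% of them, and joint detection in a cell was not computed. Gja1 was at 31.6 CPM, from 4 UMIs, in the 14 cells of suffix 1 and at 306 CPM in the 13 cells of suffix 2.

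Among vascular cells, 146 passed the endothelial and the pericyte gate, at a median of 11063.5 UMIs. Gjc1 was at 199 CPM (180.0 to 218) and Gja4 at 77.7 CPM (66.3 to 90.6) in them, both between the levels of pericytes and of other endothelial cells, and Gja1 was at 39.8 CPM (31.8 to 49.3), close to other endothelial cells. None of the 146 was called a doublet, by calls that found 42.6 to 46.2% of simulated doublets, so doublets among them were not excluded. The most frequent pair of gates was that of mature oligodendrocytes and microglia, with 1152 cells, of which 42.9% were called doublets. Gjb1 was at 103 CPM and Gjc3 at 258 CPM in those cells.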
